A study of Mus musculus with 18 samples.

Results

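Hox genes encode homeodomain transcription factors, and the 39 of them listed among the 24062 genes in the count data were examined here. They were taken by symbol alone: "Hox", a cluster letter from a to d, and a number. That gave 11 Hoxa, 10 Hoxb, 9 Hoxc and 9 Hoxd genes. The cells were NIH3T3, a mouse embryonic fibroblast line (called WT here), and NIH3T3-mCherry-mTRIM21 (called TRIM21), the same line with an introduced mouse TRIM21 fused to the red fluorescent protein mCherry. TRIM21 is a cytosolic antibody receptor and ubiquitin ligase that sends antibody-bound proteins for degradation. Cells of each line were electroporated (1400 V, 20 ms, 2 pulses) with an antibody (IgG, 7.5 µg), with bovine serum albumin (BSA, 7.5 µg) or with phosphate-buffered saline (PBS), and RNA was taken 16 h later. Each of the 6 groups had 3 samples, numbered 10, 11 and 14, so that there were 9 samples of each line and 18 in all. Calf serum was at 10% for all of them. The labels do not give the promoter that drives the fusion, whether the TRIM21 line is 1 clone, or whether the 3 samples of a group came from separate cultures. P-values therefore measure the spread between these samples, which may be technical, and the fusion cannot be told apart from anything else that differs between the lines.

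In mammals the Hox genes lie in 4 clusters, and genes with the same number in different clusters are paralogs. During development, genes with low numbers, at the 3' end of a cluster, are switched on early and towards the head, and genes with high numbers, at the 5' end, later and towards the tail and the limb tips. Polycomb proteins keep unused Hox genes silent, Trithorax proteins keep used ones active, and fibroblasts in culture are known to keep the Hox pattern of the body site they came from.

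The libraries held 19509017 to 29766433 counts assigned to genes, so that 3 counts, the limit that a count of 0 allows, corresponded to 0.101 to 0.154 CPM of these unscaled totals. All other CPM values are counts scaled to library size with the TMM method, which evens out differences in composition. The limits cover counting error only. The labelled lines were checked on Trim21, whose counts ran from 19900 to 32225 with the fusion and from 142 to 223 without it. All 12 of 12 fibroblast markers were detected well enough to test, with a summed value of 16937 to 28687 CPM in TRIM21 and 24379 to 32810 CPM in WT samples. Lum, Postn and Thy1 were lower in the TRIM21 line (adjusted p = 5.26e-05, 0.0124 and 0.0207, edgeR), and for Thy1 the adjusted p was 0.0541 without sample 10 of the TRIM21 IgG group. Of the markers of other cell types, 5 of 8 epithelial, 2 of 6 endothelial and 4 of 6 blood markers stayed under 3 counts in every sample. So did 4 of 8 neural, 3 of 5 muscle and 3 of 4 pluripotency markers. Epcam, Kdr, Cd3e, Sox2, Myod1 and Pou5f1 were among these, whereas others, such as Cdh1, Pecam1, Cdh5 and Nanog, reached 3 counts in at least 1 sample. Of the rest, 1 epithelial, 1 endothelial and 1 blood marker were high enough to test, and none of these passed. The summed level was 1.39 to 2.40 CPM in TRIM21 and 0.623 to 2.05 CPM in WT for the epithelial list, 0.751 to 2.65 and 0.479 to 1.52 for the endothelial list, and 2.001 to 3.60 and 2.36 to 3.32 for the blood list. Muscle and pluripotency lists were at 0.394 CPM or less. Of 3 neural markers tested, Tubb3 was higher and Snap25 lower in TRIM21, where 6.18% of all genes passed between the lines. The summed neural list lay at 18.8 to 28.3 CPM in TRIM21 and 13.7 to 21.8 CPM in WT. Sample 11 of the TRIM21 PBS group stood apart, with a median correlation of 0.978 with the other samples across 12140 genes, against 0.984 to 0.990 for the rest.

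Counts of 3 or more in a sample were found up to paralog group 10 and not beyond it. With 3 or more counts in every sample as the criterion, 16 of the 39 Hox genes were detected throughout, among them Hoxa2 to Hoxa7 and Hoxa10, Hoxb9, Hoxc4, Hoxc5 and Hoxc6, and Hoxd3, Hoxd4, Hoxd8 and Hoxd9. Another 6 reached 3 counts in some samples, namely Hoxa9, Hoxb3, Hoxb5, Hoxb6, Hoxb8 and Hoxc9. The remaining 17 never reached it, and 8 of those had 0 counts in all 18 samples. The set of 16 was the same in both lines, since each of them had 3 or more counts in 9 of 9 TRIM21 and 9 of 9 WT samples. All 9 members of paralog groups 11, 12 and 13, which pattern the caudal trunk and the distal limb, were under 3 counts in every sample. Over the 18 samples together Hoxc11 had 12 counts, Hoxc13 had 2 and Hoxd13 had 1, and the other 6 had 0. With at least 1 count as the criterion, 17 genes were present in every sample, and with at least 10 counts, 15.

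**Figure D1:**
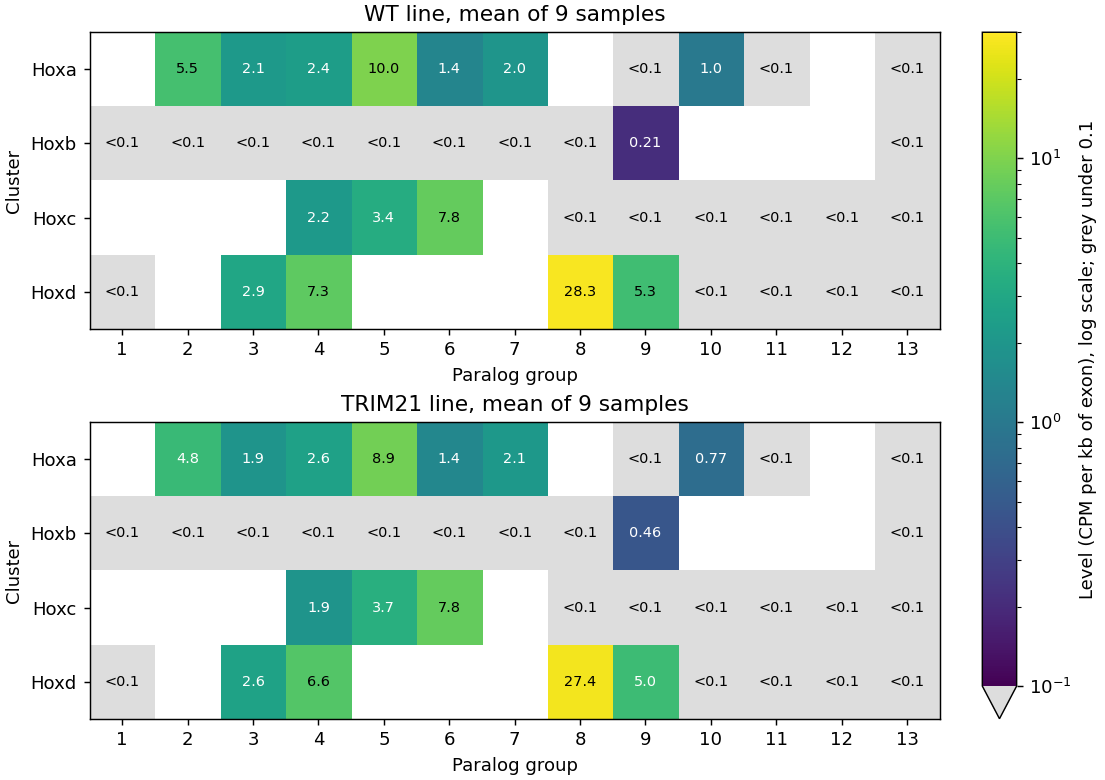
Mean level of each Hox gene (CPM per kb of exon, log colour scale) by cluster (rows) and paralog group (columns), with the WT line above and the TRIM21 line below (9 samples each). White squares have no gene among the 39 or are not shown, and grey squares were under 0.1. Both lines show the same filled squares, with Hoxd8 highest at 28.3 in WT and 27.4 in TRIM21.

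Expressed genes mostly lay beside each other within a cluster, next to genes with few counts or none. In the Hoxd cluster (chr2:74668310-74765142, plus strand, GRCm38), Hoxd9 had 175 to 365 counts per sample and its 5' neighbour Hoxd10 at most 2. Hoxd11 and Hoxd12 had 0 counts in all samples, and Hoxd1, at the 3' end, also had 0. In the Hoxa cluster (chr6:52155590-52260880, minus strand), Hoxa2 to Hoxa7 formed an unbroken stretch. Beyond it, Hoxa9 had at most 10 counts, Hoxa10 had 32 to 104, and Hoxa11 and Hoxa13 had 0. In the Hoxc cluster (chr15:102921103-103036852, plus strand), Hoxc4 to Hoxc6 were expressed, whereas Hoxc8 had 1 count in all 18 samples together. The Hoxb cluster (chr11:96194316-96368256, plus strand) was nearly silent apart from Hoxb9. Hoxb2 and Hoxb13 had 0 counts, and Hoxb3, the next most counted gene there, had 32 counts in total. Of 24 listed genes flanking the clusters, 17 passed the filter on low counts, among them Mtx2 beside Hoxd at 26.8 ± 2.50 CPM per kb (SD, n = 18), while Evx1 and Evx2, homeobox genes next to Hoxa13 and Hoxd13, were under 3 counts throughout.

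The stretches of DNA before the start sites are shown for 3 genes of the Hoxd cluster, Hoxd8 (expressed) and the silent Hoxd10 and Hoxd13, because they lie close together and were at opposite ends of the range of levels. Each is the 250 bases upstream of the RefSeq start (GRCm38.p6, plus strand, 5' to 3'), with CpG dinucleotides, the sites of DNA methylation, in capitals. They lie at chr2:74704365-74704614, chr2:74691641-74691890 and chr2:74667975-74668224, respectively, and outside annotated exons.
Hoxd8: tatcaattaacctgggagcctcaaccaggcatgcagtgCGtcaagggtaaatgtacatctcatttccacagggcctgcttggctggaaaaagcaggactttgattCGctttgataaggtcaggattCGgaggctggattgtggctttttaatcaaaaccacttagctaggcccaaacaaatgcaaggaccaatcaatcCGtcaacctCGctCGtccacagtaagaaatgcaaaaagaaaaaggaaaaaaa
Hoxd10: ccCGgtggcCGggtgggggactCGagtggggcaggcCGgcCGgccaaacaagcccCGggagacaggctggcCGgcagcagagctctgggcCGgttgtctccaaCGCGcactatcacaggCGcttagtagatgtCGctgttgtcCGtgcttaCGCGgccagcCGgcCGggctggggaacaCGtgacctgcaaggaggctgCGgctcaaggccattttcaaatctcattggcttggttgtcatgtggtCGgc
Hoxd13: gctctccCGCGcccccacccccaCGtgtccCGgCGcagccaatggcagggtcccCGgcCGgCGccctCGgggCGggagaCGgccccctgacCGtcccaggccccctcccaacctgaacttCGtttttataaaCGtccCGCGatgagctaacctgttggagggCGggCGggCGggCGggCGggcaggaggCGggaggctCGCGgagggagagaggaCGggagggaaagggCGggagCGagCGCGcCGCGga
The Hoxd8 sequence holds 6 CpGs, the Hoxd10 sequence 20 and the Hoxd13 sequence 31. A RefSeq promoter was matched for 22 of the 39 genes (24 windows). Over the 12 windows of genes detected in every sample the median was 10 CpGs (3 to 28), over the 10 windows of genes never reaching 3 counts it was 17 (2 to 35), and over all 32851 promoters of this length it was 6. The Hoxd4 window held 3 CpGs, and that of silent Hoxd11 held 2 or 20 depending on the start site, so the ranges overlapped. The letters CCAAT, on either strand, were present in 7 of the 12 windows of expressed genes, in 6 of the 10 of silent genes and in 33.8% of all promoters. AGGTCA, the core letters of many nuclear receptor sites, was present in 4 of 12, 2 of 10 and 14.02%, in the same order. These are letter matches on either strand and were not compared by a test.

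Levels were compared between genes only as CPM per kb of exon. Hoxd8 was highest, at 27.8 ± 1.93 CPM per kb (SD, n = 18), above 85.1% of the 12058 tested genes with a known length. Its counts were 1533 (lowest), 1757 (median) and 2121 (highest) in the TRIM21 samples and 1495, 1690 and 2034 in the WT samples. Its lowest sample (24.5) lay above the highest sample (12.5) of Hoxa5, the next gene in order. Hoxa5, a regulator of lung and rib development, had 9.47 ± 1.02 CPM per kb, from 316, 374 and 545 counts in TRIM21 and 342, 394 and 491 in WT (lowest, median, highest). Hoxc6, a thoracic gene, followed with 7.84 ± 0.980, from 255, 455 and 655 counts in TRIM21 and 347, 420 and 500 in WT. In both genes the lines overlapped.

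Below these, the order of the genes reported here was Hoxd4 (6.94 CPM per kb), Hoxa2 (5.17), Hoxd9 (5.12), Hoxc5 (3.55), Hoxd3 (2.78), Hoxa4 (2.50), Hoxc4 (2.04), Hoxa3 (2.04), Hoxa7 (2.03), Hoxa6 (1.38), Hoxa10 (0.888) and Hoxb9 (0.334). Apart from Hoxd8 and Hoxa5, every pair of neighbours in this order had overlapping ranges over the 18 samples. Hoxd3 and Hoxd4 are uncertain, because 62.3% of the Hoxd3 exon bases and 52.3% of those of Hoxd4 are shared with another gene on the same strand. Divided by the unshared bases alone, their levels were 7.38 and 14.5 CPM per kb, which placed Hoxd4 above Hoxa5 (9.47) and Hoxc6 (7.84). The Hoxd cluster gave a median of 51.6% of the summed Hox level, Hoxa 32.1%, Hoxc 16.5% and Hoxb 0.434%. By paralog group, group 8 (Hoxd8) gave 33.2%, group 5 (Hoxa5 and Hoxc5) 15.7%, group 4 (Hoxa4, Hoxc4 and Hoxd4) 14.001% and group 6 (Hoxa6 and Hoxc6) 11.3%. All these shares used exon lengths that include the shared bases. The shares and their order are therefore uncertain too, above all for the Hoxd cluster and group 4, and were not recomputed with unshared bases.

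The lines were then compared over their 9 samples each. Hoxb9, a thoracic gene of the otherwise quiet Hoxb cluster (chr11:96271457-96276595), was higher in the TRIM21 line, and it was the 1 Hox gene of the 16 tested that passed at adjusted p under 0.05 (edgeR quasi-likelihood test, Benjamini-Hochberg over 12140 genes). Among all genes, 6.18% passed, 1.39% as higher and 4.79% as lower in TRIM21, so 1 of 16 is close to the background. In the TRIM21 line Hoxb9 had 19, 21 and 38 counts after PBS, 16, 27 and 63 after BSA, and 20, 26 and 27 after IgG, for samples 10, 11 and 14 in that order. In the WT line it had 13, 14 and 15 after PBS, 10, 11 and 15 after BSA, and 7, 11 and 13 after IgG. TRIM21 samples thus held 16 to 63 counts and WT samples 7 to 15, with no overlap in counts. After scaling by depth, the lowest TRIM21 sample (0.635 CPM, number 10 after BSA) lay below 2 WT samples.

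Mean Hoxb9 expression was 1.18 ± 0.404 CPM in TRIM21 and 0.544 ± 0.114 CPM in WT (SD over 9 samples of each line). Its log2 fold change was 1.12 (SE 0.216, adjusted p = 0.00303, edgeR). TRIM21 was higher in 9 of 9 pairs with the same treatment and number, but Hoxb9 was named by its p in these same samples. How many of all genes had 9 of 9 such pairs was not computed. The log2 fold change was 0.85 (SE 0.368) after PBS, 1.38 (SE 0.364) after BSA and 1.14 (SE 0.390) after IgG. None of these passed alone (adjusted p = 0.219, 0.107 and 0.359, edgeR), although the BSA value did without sample 10 of the TRIM21 BSA group (adjusted p = 0.0154). Within numbers 10, 11 and 14 it was 0.81, 1.10 and 1.29 (adjusted p = 0.261, 0.309 and 0.0490, edgeR). These are few molecules per library, and fewer cells with the transcript or less transcript per cell cannot be told apart in bulk RNA.

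**Figure D2:**
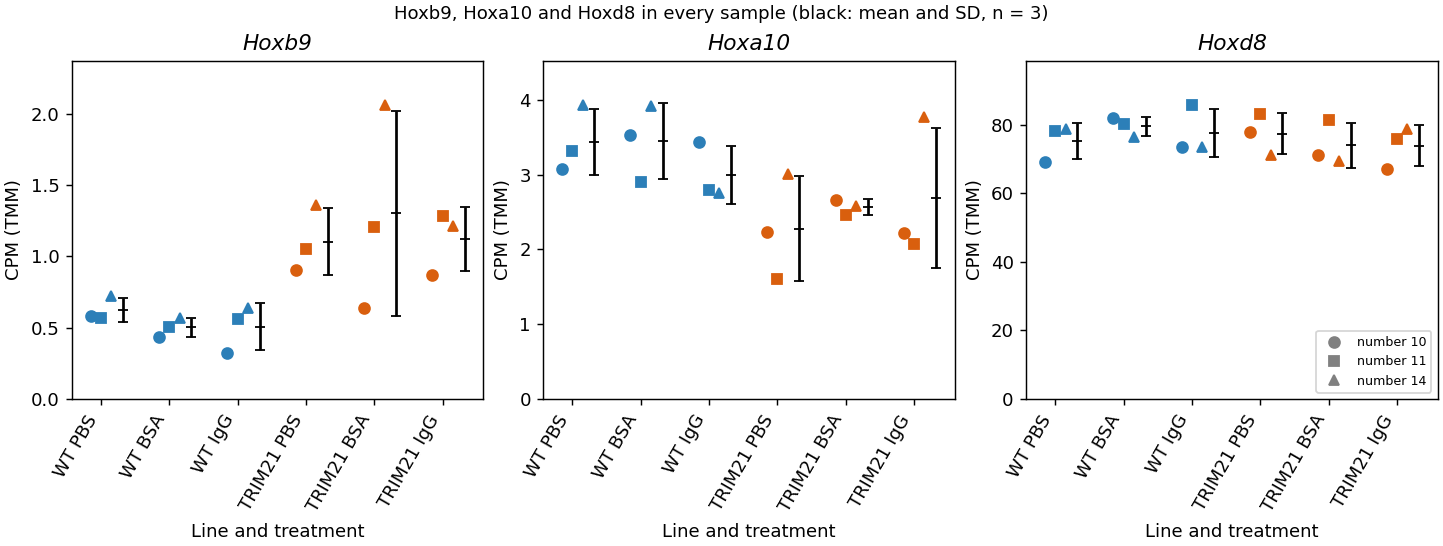
Expression in CPM (vertical axes, from 0) of Hoxb9, Hoxa10 and Hoxd8 in each sample by line and treatment (blue WT, orange TRIM21, marker shape for the sample number, black bar for the mean ± SD of 3). Hoxb9 lies between 0.635 and 2.06 CPM in TRIM21 and between 0.325 and 0.719 CPM in WT samples, whereas the lines overlap for the others.

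The other 15 tested Hox genes did not pass in this fit, which does not use the sample number. Hoxa10, a gene of the lumbar region and proximal limb, had 3.30 ± 0.448 CPM in WT and 2.51 ± 0.616 CPM in TRIM21, with 55, 74 and 104 counts (lowest, median, highest) against 32, 55 and 84. Its log2 fold change was -0.38 (SE 0.136, adjusted p = 0.106, edgeR), and it was lower in TRIM21 in 8 of 9 pairs with the same treatment and number. How many of all genes had so many pairs in the same direction was not computed. Without sample 14 of the TRIM21 PBS group the adjusted p of Hoxa10 was 0.0299, and without sample 14 of the TRIM21 IgG group it was 0.0224. Leaving out that PBS sample also raised the calls over all genes from 750 to 1268. Hoxa10 also passed when the sample number was added to the fit as a block (adjusted p = 0.0302, edgeR), where more of all genes passed as well. Hoxd8 had a log2 fold change of -0.05 (SE 0.056, adjusted p = 0.672), Hoxa5 of -0.16 (SE 0.070, adjusted p = 0.194) and Hoxc6 of -0.0016 (SE 0.089, adjusted p = 0.994). Hoxa2, a hindbrain and branchial arch gene, had -0.21 (SE 0.081, adjusted p = 0.146). At an unadjusted p under 0.05 there were 4 of 16 Hox genes (Hoxb9, Hoxa10, Hoxa2 and Hoxa5), beside 21.4% of all genes. Over the 16 genes the median log2 fold change was -0.07, with 5 above 0 and 11 below, against 0.01 over all 12140 genes. In summed level the Hox genes had 81.0 ± 4.11 CPM per kb in TRIM21 and 85.0 ± 4.36 in WT.

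**Figure D3:**
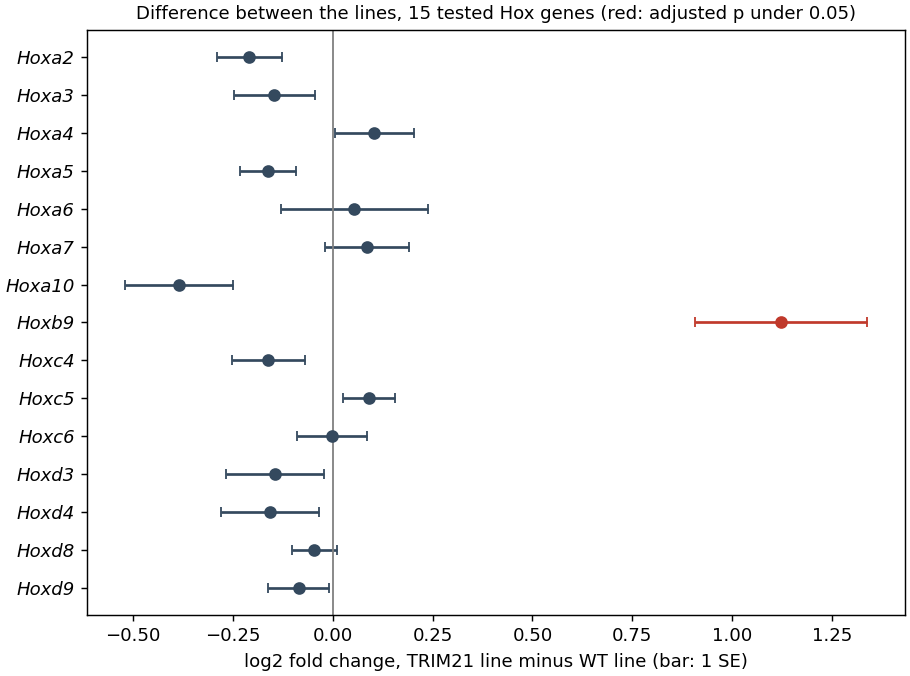
Log2 fold change of the TRIM21 line over the WT line (horizontal axis, bar 1 SE) for 15 tested Hox genes, ordered by cluster and number. Hoxb9 (red) is at 1.12, and the others lie between -0.38 (Hoxa10) and 0.10 (Hoxa4).

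Genes too low to test gave few counts in either line. Summed over 9 samples, Hoxa9 had 41 counts in TRIM21 and 50 in WT, Hoxb3 had 20 and 12, Hoxb5 14 and 7, and Hoxb6 10 and 6. In the other direction Hoxb8 had 1 and 10, and Hoxc9 had 3 and 16. Hotair, a noncoding RNA transcribed from the Hoxc cluster on the opposite strand, had 2 to 7 counts in TRIM21 samples and 3 to 16 in WT samples. Its log2 fold change was -1.11 (SE 0.291, adjusted p = 0.0282, edgeR), and it was lower in TRIM21 in 9 of 9 pairs, a share not computed over all genes. That call was lost without any of 6 samples (TRIM21 BSA 10, IgG 10 and IgG 11, and WT PBS 14, BSA 14 and IgG 14), where the adjusted p was 0.0554 to 0.106. Of the 22 listed noncoding genes of the clusters, 12 were in the count data, 3 were tested and Hotair alone passed, beside 6.18% of all genes.

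Hox proteins bind DNA together with partners of the TALE homeodomain class, and all 11 of 11 listed partners were expressed and tested. Pbx2 (13.8 ± 1.31 CPM per kb, SD, n = 18) and the related repressor Tgif1 (11.2 ± 1.10) were among the highest. Of the 11, 1 passed, beside 6.18% of all genes (4.79% as lower in TRIM21). This was Pknox2, which was lower in TRIM21, at 0.574 ± 0.185 CPM against 1.38 ± 0.401 CPM in WT (log2 fold change -1.26, SE 0.217, adjusted p = 0.00116, edgeR). All WT samples lay above all TRIM21 samples, and 1.91% of all genes tested were separated in either direction (0.239% higher and 1.67% lower in TRIM21), with 0 of the 16 Hox genes among them. Pknox2 did not pass in number 10 or 11 alone (adjusted p = 0.135 and 0.608, edgeR). The median of the list was -0.02.

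Among the chromatin regulators of the clusters, 0 of 30 Polycomb genes and 0 of 12 Trithorax and demethylase genes passed in edgeR, beside 6.18% of all genes. Their medians were 0.01 and 0.09 on the log2 scale. At an unadjusted p under 0.05 there were 6 and 2, beside 21.4% of all genes. DESeq2 called 2 Polycomb genes, Suz12 (log2 fold change 0.18 in edgeR) and Ezh1 (-0.30), and 0 of the others, and limma-voom called 0 in both lists. The share of all genes that DESeq2 called between the lines is not given here, so these 2 have no background from the same tool. Of 18 genes of retinoid and caudal signalling, the inputs that open the clusters in the embryo, 8 were tested. In edgeR 0 of them passed, beside 6.18% of all genes, and 2 had an unadjusted p under 0.05, beside 21.4%. Aldh1a2, which makes retinoic acid, and the caudal factors Cdx1, Cdx2 and Cdx4 were under 3 counts in every sample. Cyp26b1, which degrades retinoic acid, was just outside the threshold with 46.5 ± 10.9 CPM in TRIM21 and 65.3 ± 13.96 CPM in WT (log2 fold change -0.49, SE 0.143, adjusted p = 0.0507, edgeR). It passed in limma-voom (adjusted p = 0.0469), in DESeq2 (adjusted p = 0.0135) and in edgeR without the filter on low counts (adjusted p = 0.0195). Leaving out any of 5 samples also brought it past the threshold (TRIM21 PBS 14 and BSA 14, and WT PBS 10, BSA 11 and IgG 10, adjusted p = 0.00448 to 0.0489, edgeR).

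Other positional factors of limb and trunk mesenchyme were tested where expressed, 19 of 44, and 3 passed, all lower in TRIM21, beside 4.79% of all genes. At an unadjusted p under 0.05 there were 8 of the 19, beside 21.4%. Foxf1, a gene of visceral mesoderm, had 1.17 ± 0.320 CPM in TRIM21 and 2.31 ± 0.571 CPM in WT (log2 fold change -0.96, SE 0.170, adjusted p = 0.00153, edgeR). Lhx9, a gonad and limb factor, had 8.79 ± 1.21 and 11.6 ± 0.998 CPM (log2 fold change -0.40, SE 0.085, adjusted p = 0.00761, edgeR). Both were lower in TRIM21 in 9 of 9 pairs with the same treatment and number, but they were named by their p in these same samples. The share of all genes with 9 of 9 was not computed. Lhx9 did not pass in number 10, 11 or 14 alone (adjusted p = 0.135, 0.736 and 0.144, edgeR). Foxf1 did not pass in number 11 or 14 alone (adjusted p = 0.394 and 0.0895, edgeR). The limb identity genes Tbx5 (forelimb) and Pitx1 (hindlimb) were under 3 counts in every sample. The median of the list was -0.11. The 12 fibroblast markers had a median of -0.27, with 3 lower in TRIM21, beside 4.79% of all genes, and their part in these differences was not tested.

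Electroporation with antibody or albumin was compared with buffer in each line, over both lines, and as the difference of those effects between the lines, 12 comparisons in all. No Hox gene passed in any of them, and neither did any other gene (0.0% called at adjusted p under 0.05, edgeR). At an unadjusted p under 0.05 there were 2, 0 and 0 of 16 Hox genes in the TRIM21 line for IgG minus PBS, IgG minus BSA and BSA minus PBS, beside 5.61%, 0.371% and 3.68% of all genes. In the same order there were 0, 0 and 0 in the WT line beside 2.68%, 5.87% and 2.49%, and 1, 0 and 1 over both lines beside 5.52%, 1.03% and 0.972%. For the difference between the lines there were 1, 0 and 0 beside 1.82%, 3.97% and 6.51%. DESeq2 and limma-voom also called no Hox gene, and over all genes DESeq2 called 5 for IgG minus PBS over both lines. The comparisons share samples (IgG minus PBS and BSA minus PBS share the PBS samples), so they are not independent of each other.

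Hoxd9, the 5'-most expressed gene of its cluster, had the smallest p of the Hox genes for IgG minus PBS in the TRIM21 line. It measured 8.32, 9.60 and 9.73 CPM after PBS, 9.45, 11.4 and 11.9 after BSA, and 10.0, 12.1 and 13.1 after IgG (samples 10, 11 and 14). The IgG samples lay above the PBS samples, with a log2 fold change of 0.35 (SE 0.133, unadjusted p = 0.0181, adjusted p = 0.724, edgeR). In the WT line it measured 9.70, 10.5 and 11.4 CPM after PBS, 11.9, 11.6 and 11.5 after BSA, and 9.94, 12.1 and 12.5 after IgG. There the BSA samples lay just above the PBS samples (lowest 11.5 against highest 11.4), and the IgG samples overlapped the PBS samples. The log2 fold change for IgG minus PBS was 0.13 (SE 0.133). Hoxd9 was picked by its p in these same samples, and the share of all genes separated by treatment in this way was not computed. The difference between the lines in IgG minus PBS was 0.22 (SE 0.188, adjusted p = 0.972, edgeR).

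Hoxd3 and Hoxd4, neighbours with shared exons, had 1 library far from the rest. Hoxd3 measured 9.89, 5.15 and 11.4 CPM after PBS in the TRIM21 line (samples 10, 11 and 14), against 10.0, 12.3 and 13.8 after BSA and 13.6, 12.3 and 11.5 after IgG. Hoxd4 measured 20.6, 9.001 and 20.5 CPM after PBS, 20.6, 20.4 and 23.8 after BSA and 19.4, 19.8 and 20.2 after IgG. Sample 11 after PBS was thus at 43.4% of the median of the other TRIM21 samples for Hoxd3 and at 44.0% for Hoxd4. In the WT line the same sample number after PBS was the highest, at 16.0 CPM for Hoxd3 and 27.9 CPM for Hoxd4. IgG minus PBS in the TRIM21 line was 0.49 (SE 0.215, adjusted p = 0.724, edgeR) for Hoxd3 and 0.24 for Hoxd4. Without sample 11 after PBS, these were 0.24 and -0.03.

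**Figure D4:**
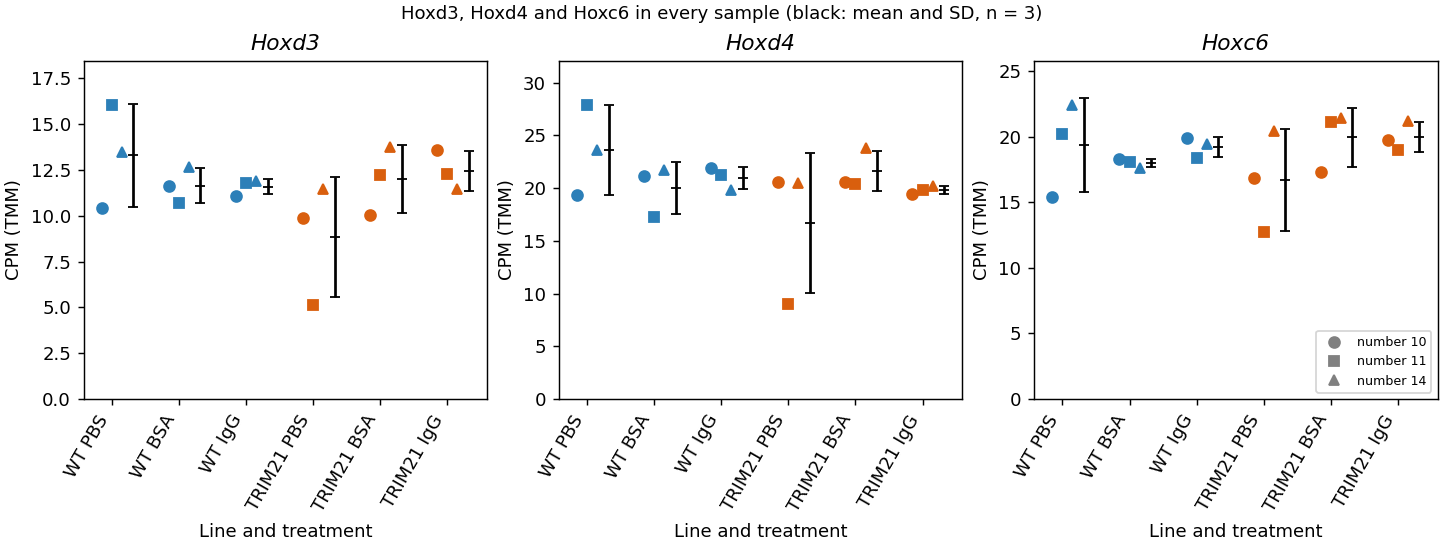
Expression in CPM (vertical axes, from 0) of Hoxd3, Hoxd4 and Hoxc6 in each sample by line and treatment (colours, marker shapes and bars as in the plot of Hoxb9). The TRIM21 PBS sample numbered 11 (orange square) is lowest for each gene, at 5.15, 9.001 and 12.8 CPM.

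The same library was below the other TRIM21 samples for 5 of the 16 tested Hox genes (Hoxa6, Hoxa10, Hoxc6, Hoxd3 and Hoxd4) and above them for 3 (Hoxa4, Hoxc5 and Hoxd8). Over all 12140 genes it also had the lowest median correlation with the other samples (0.978). The share of all genes that were lowest or highest in it was not computed, so whether these counts are particular to the Hox genes is not known. The median log2 fold change of the Hox genes between the lines was -0.20 after PBS, -0.04 after BSA and 0.01 after IgG, beside 0.01, 0.00 and 0.01 over all genes. Without this library the PBS value was -0.14. No Hox gene passed in any single treatment, where 1.71%, 0.848% and 0.774% of all genes did after PBS, BSA and IgG (edgeR). At an unadjusted p under 0.05 there were 5 Hox genes after PBS, 1 after BSA and 1 after IgG, beside 19.8%, 10.3% and 7.79% of all genes, and DESeq2 and limma-voom called none either. Hoxd3 after PBS, at -0.58 (SE 0.214, adjusted p = 0.165, edgeR), passed when sample 14 of the TRIM21 PBS group was left out (adjusted p = 0.0358) and was -0.33 without sample 11. Leaving out that sample 14 also raised the calls over all genes after PBS from 208 to 1018.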

How the data were processed

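Gene counts were deposited by the authors, 1 table per sample, from strand-specific poly(A)-selected TruSeq libraries per the labels' protocols. The submitters' processing notes name bcl2fastq 2.19.1.403, FastQC 0.11.5, STAR 2.5.1b, HTSeq 0.6.0, DESeq2 1.6.3 and the mm10 build. The annotation release and the strand setting of the counting are not given in the sources used here, so genes with antisense partners are uncertain. Reads assigned to no gene (13.1% to 18.8%) or to several (0.473% to 0.630% of unique reads) were left out.

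Counts were fitted with edgeR 4.0.16 (quasi-likelihood, TMM, filterByExpr, 1 mean for each of 6 groups, 18 samples, R 4.3.3), with p-values adjusted over the 12140 genes kept. All 16 Hox genes detected in every sample passed the filter. DESeq2 1.42.0, limma-voom 3.58.1, other filters and scalings, and each sample left out in turn were tried. The fit was tested on simulated data. Levels per kb used merged exon lengths (GENCODE vM21, GRCm38), to which 39 of 39 Hox genes matched. For genes past the threshold and the 3 highest per length, values by sample were given. From each gene list up to 3 passing genes were named, by smallest p; some genes of the lists and clusters are not reported here singly. The Hox genes and all lists were chosen with earlier results of these data known. Hoxa2, Hoxa10, Hoxd3, Hoxd4, Hoxd9 and Cyp26b1 were singled out after their values were seen.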

Additional observations from a re-analysis of the deposited data

Results flagged for a closer look

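In 4 of 30 sets of 9 samples (15 tested Hox genes in 2 lines) 1 sample lay far from the others by Dixon's criterion, which chance exceeds in about 1 in 20 sets. Hoxa4 was highest in WT BSA sample 10 (4.88 CPM, next 4.01). Hoxa5 was highest in WT PBS sample 14 (23.5, next 19.7). Hoxd3 (5.15, next 9.89) and Hoxd4 (9.001, next 19.4) were lowest in TRIM21 PBS sample 11.

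Each of 45 pairs of a gene and a treatment effect was set against a reference mean, that of PBS, or of BSA for IgG minus BSA. In 5 of them every treated sample lay on one side of that mean in the TRIM21 line and on the opposite side in the WT line. The share over all genes was not computed. Mean log2 differences (TRIM21, then WT) for BSA minus PBS were 0.28 and -0.09 for Hoxc6, 0.51 and -0.17 for Hoxd3, and 0.46 and -0.23 for Hoxd4. For IgG minus PBS they were 0.57 and -0.18 for Hoxd3 and 0.34 and -0.16 for Hoxd4. This opposition by sample was not itself tested, and the interaction in edgeR passed for none of them (adjusted p = 0.651 for each BSA value and 0.972 for each IgG value). The TRIM21 values share the PBS samples of that line, sample 11 among them. The WT values share the WT PBS samples, of which sample 11 was highest for Hoxd3 (16.0 CPM) and Hoxd4 (27.9 CPM).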

How the results depend on the processing

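Hoxb9 kept its direction and its call when any 1 of the 18 samples was left out (log2 fold change 0.94 to 1.23). It was not tested when 10 counts were required in every sample, which leaves 0 Hox genes called. Numbers 10 and 11 alone also called 0. Of the 16 Hox genes tested Hoxb9 had the fewest counts, 7 to 63 per library, which limits its precision.

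The labels do not say what the sample numbers mark. Of 45 same-number pairs 32 correlated above 0.1 (mean 0.22, -0.32 to 0.58), with each group centred on its own mean. That centring ties the mean for different numbers (-0.11) to the same-number mean, so it is no separate evidence. Because not every same-number pair exceeded 0.1, the numbers were not used as pairs, although samples of a number tended to deviate together. With the replicate block, Hoxa10 passed as well (2 Hox genes; adjusted p = 0.0302), and also with a GC offset (2; adjusted p = 0.0183). Cyp26b1 passed too (adjusted p = 0.00125, and 0.000267 with the offset). The block gave 1 Hox gene after BSA, also with the offset (1), and 2 after PBS with the offset. Calls over all genes rose under each of these settings too, as listed next, and the Hox counts are to be read beside that rise.

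Over all 12140 genes the line difference called 750, against 1462 with the block and 2363 with block and GC offset. Numbers 10, 11 and 14 alone called 314, 48 and 253. After PBS (208) it called 132 with the 10-count filter, 847 and 1987 with the block without and with the offset, 451 in DESeq2 and 44 from the compared groups alone. After BSA (103) these were 53, 187, 319 and 164 (DESeq2). After IgG (94) they were 57, 173, 246, 166 (DESeq2) and 179 (compared groups). IgG minus PBS over both lines called 1 gene with the block, 1 with the offset and 5 in DESeq2.

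Leaving out 1 sample gave 517 (without TRIM21 IgG 10) to 1268 (without TRIM21 PBS 14) genes and 1 to 2 Hox genes between the lines. It gave 104 to 1018 and 0 to 2 (without TRIM21 PBS 14) after PBS, 66 to 138 and 0 to 1 (without TRIM21 BSA 10) after BSA, and 69 to 148 and 0 after IgG. Hoxc6 had no stable direction: -0.0016, then 0.0025 with DESeq2 size factors, 0.000176 without a filter, 0.0029 in DESeq2, 0.000198 and 0.085 for numbers 10 and 14 alone, and -0.065 to 0.045 with 1 sample left out. Hoxd4 (IgG minus PBS in TRIM21) turned to -0.035 without TRIM21 PBS 11, with values up to 0.43 when another sample was left out. Levels moved to 4.73 (Hoxa3, from 2.04), 11.9 (Hoxc6) and 3.92 (Hoxd3) CPM per kb with the longest transcript. With unshared bases, an alternative chosen after seeing the data, they moved to 14.5 (Hoxd4) and 7.38 (Hoxd3). The causes were not tested.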
